A study of Homo sapiens with 4 samples.

Results

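The fibroblast growth factor (FGF) ligand genes examined here were FGF2, FGF3, FGF4, FGF8, FGF10, FGF13, FGF17, FGF18 and FGF19, 9 of the 56595 gene symbols in the table. They were taken by symbol, and each symbol had 1 row. The cells were H1, an established human embryonic stem cell line, in custom mTeSR1 medium with activin A and BMP4, the signals used in this protocol to start mesoderm and then blood formation. The labels give 40 ng/ml activin A and 50 ng/ml BMP4, whereas the study's methods give these doses the other way round. At day 2 the control group had received DMSO, the vehicle, and the other group IWP2, a small molecule that inhibits the acyltransferase porcupine and so the release of Wnt proteins; its dose is not given in the sources used here. Each group had 2 libraries of total RNA from the whole culture. The study's methods speak of independent experiments in general, in a number above the 2 libraries per group here, and nothing ties these libraries to separate cultures, so p-values measure only the spread between these libraries, which may be technical. The depth, estimated from the value that a single fragment takes, was 22900000 and 20600000 fragments with DMSO and 25300000 and 21900000 with IWP2.

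FGFs bind receptor tyrosine kinases, FGFR1 to FGFR4, with heparan sulfate as a cofactor, and signal largely through the RAS-ERK cascade. ERK then switches on its own inhibitors, among them the Sprouty and DUSP families, so that these genes serve as a readout of the pathway. FGF2 is added to medium to keep human pluripotent cells undifferentiated, and FGF4 is a classical gene of the pluripotent inner cell mass. FGF8 and FGF17 belong to 1 subfamily with FGF18 and are expressed in the primitive streak and the mesoderm that leaves it during gastrulation. In the study's protocol basic FGF, the FGF2 protein, is supplied with the medium that follows the activin A and BMP4 step. Whether the custom base medium itself held FGF2 is not given in the sources used here, and only transcripts were measured.

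The comparison asked how blocking endogenous Wnt release changed these genes while activin A and BMP4 were present. The streak ligands FGF8 and FGF17 were 13.7-fold and 61.3-fold lower with IWP2 by mean FPKM (a fragment count corrected for gene length and library size). FGF10 and FGF19 were also lower, by 4.01-fold and 15.9-fold, and FGF2 was 2.02-fold higher. FGF13 and FGF4 did not pass the test, FGF18 was lower in both IWP2 libraries without passing it, and FGF3 was at or near 0 throughout. In the fit across all genes (limma on log2(FPKM + 1), called at a Benjamini-Hochberg adjusted p under 0.05), 8 of the 9 members had the mean FPKM of 0.5 needed for testing. Of these 8, 4 were called lower and 1 higher, counts that fell to 2 and 0 without either IWP2 library and to 2 and 1 without the filter. FGF17, FGF18 and FGF19 had IWP2 means under 0.5 FPKM and passed only through their DMSO values, so these counts, like the median over the 8, only describe the members that passed. Across all 15957 genes tested, 7.39% were called lower, 5.86% higher and 13.3% in either direction. The median difference over the 8 members was -0.78 on the log2 scale, against -0.01 over all genes tested.

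**Figure D1:**
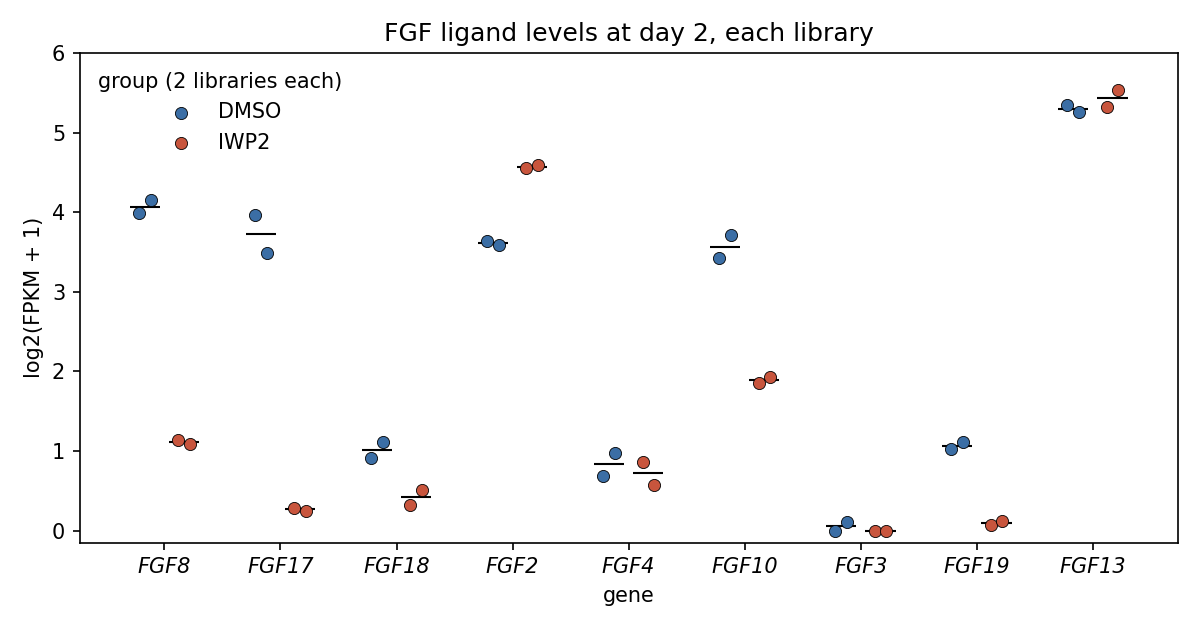
Levels of the 9 FGF genes as log2(FPKM + 1) on the vertical axis, with each library a point, the 2 DMSO libraries in blue and the 2 IWP2 libraries in red, and a black bar at each group mean. FGF8, FGF17, FGF10 and FGF19 sit lower with IWP2, FGF2 sits higher, and the points of FGF4 and FGF13 interleave.

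For the sequence around these genes, RefSeq windows (GRCh38.p14) of 250 bases before to 50 after a transcript start were matched by symbol. This gave a window for 5 of the 9 members: FGF2, FGF3, FGF10, FGF13 (2 windows) and FGF18. FGF4, FGF8, FGF17 and FGF19 were without an entry. Both stretches shown end before the annotated start of the gene; FGF2 is shown as the member that rose, and FGF18 as the member of the FGF8 subfamily that had a window. Capitals mark 2 kinds of match on either strand: the GC box GGGCGG, and the TCF/LEF core CTTTG followed by 2 bases that are each adenine or thymine, the letters bound by the factors that carry Wnt signals to DNA.

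FGF2, chr4:122826581-122826707, plus strand: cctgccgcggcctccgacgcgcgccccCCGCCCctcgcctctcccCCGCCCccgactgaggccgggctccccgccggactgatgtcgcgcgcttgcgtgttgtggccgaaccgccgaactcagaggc

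FGF18, chr5:171419397-171419646, plus strand: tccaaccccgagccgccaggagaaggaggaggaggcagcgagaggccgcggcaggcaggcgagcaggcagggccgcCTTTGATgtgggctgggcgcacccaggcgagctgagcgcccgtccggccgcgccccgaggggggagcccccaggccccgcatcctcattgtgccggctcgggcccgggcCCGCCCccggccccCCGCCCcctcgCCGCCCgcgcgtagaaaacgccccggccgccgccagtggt

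The FGF18 stretch held 1 TCF/LEF match, CTTTGAT, and 3 GC boxes, and the FGF2 stretch held 2 GC boxes and no TCF/LEF match. Over the full windows of 300 bases, FGF18 was the only one of the 6 member windows with a TCF/LEF match, while 13.8% of all 35116 windows had one. GC boxes were in 45.0% of all windows, and FGF2, FGF3 and FGF18 had 3, 4 and 3. The G and C content was 74.7% in the FGF2 window and 77.7% in the FGF18 window, against 62.3% in the FGF10 window. These matches describe letters in a short window and say nothing of binding.

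Among the streak ligands, FGF8 (ENSG00000107831.12) lies on the minus strand at chr10:101770130-101780369 (GRCh38). Its level was 14.8 and 16.7 FPKM in the DMSO libraries and 1.19 and 1.12 FPKM in the IWP2 libraries. The groups were far apart, and the 2 libraries within each group differed little. The difference was -2.96 ± 0.13 on the log2(FPKM + 1) scale (SE, n = 2 per group, limma adjusted p = 0.0006955), which put FGF8 87th from the lowest of the 15957 genes tested.

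FGF17 (ENSG00000158815.10, plus strand, chr8:22042398-22048809) had 14.7 and 10.2 FPKM with DMSO and 0.218 and 0.187 FPKM with IWP2. It was thus as abundant as FGF8 in 1 DMSO library and lower in the other, and clearly lower than FGF8 in both IWP2 libraries. The difference was -3.46 ± 0.20 on the same scale (SE, limma adjusted p = 0.001406), the 54th lowest of all genes tested. The pseudocount of 1 makes the log2 difference of a gene this low smaller than the ratio of its FPKM means. The calls for FGF8 and FGF17 held under all 14 alternative settings, leaving out each library in turn included.

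FGF18 (ENSG00000156427.7, plus strand, chr5:171419656-171457623), the third gene of this subfamily, was low in every library. It had 0.883 and 1.16 FPKM with DMSO and 0.252 and 0.426 FPKM with IWP2, so that both IWP2 values lay under both DMSO values. The difference was -0.60 ± 0.19 (log2 scale, SE), with an adjusted p of 0.1184 in limma, and was not called. FGF18 has 1 annotated transcript, so its FPKM could be turned into fragments from the value that a single fragment takes in each library. This gave about 35 and 41 fragments in the DMSO libraries and about 11 and 16 in the IWP2 libraries.

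Of the ligands linked to pluripotency, FGF2 (ENSG00000138685.13, plus strand, chr4:122826708-122898236), the basic FGF of stem cell media, was the member that rose. It had 11.5 and 11.02 FPKM with DMSO and 22.4 and 23.1 FPKM with IWP2, with the libraries of each group close together and no overlap between groups. The difference was 0.96 ± 0.09 (log2 scale, SE, limma adjusted p = 0.005465). The 3′ part of FGF2 overlaps NUDT6, which is read from the other strand. Whether strand was used in counting is not given in the sources used here, so reads of the shared stretch cannot be told apart. NUDT6 itself had 3.27 and 2.50 FPKM with DMSO and 1.77 and 3.02 FPKM with IWP2, levels well under those of FGF2 and without a split between groups.

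FGF4 (ENSG00000075388.3, minus strand, chr11:69771016-69775403) was not called, and its change was not tested against that of FGF2. It had 0.615 and 0.974 FPKM with DMSO and 0.815 and 0.493 FPKM with IWP2, and the groups overlapped. The difference was -0.12 ± 0.21 (log2 scale, SE, limma adjusted p = 0.7653), with a 95% interval from -0.66 to 0.43, and its sign turned positive without DMSO replicate 2 (0.027) and without IWP2 replicate 2 (0.024). POU5F1 and SOX2, the factors known to act together on the FGF4 enhancer, were both higher with IWP2 in the same libraries. SOX2 had 0.193 and 0.174 FPKM with DMSO and 35.6 and 36.1 FPKM with IWP2, and POU5F1 751 and 571 FPKM with DMSO and 1854 and 1844 FPKM with IWP2. SOX2 differed by 4.96 ± 0.12 (log2 scale, SE, limma adjusted p = 0.000302), and FGF4 was under 1 FPKM in all 4 libraries. Whether these factors acted on FGF4 here was not tested.

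The contrast between these 2 pairs of ligands was described by the mean log2(FPKM + 1) of FGF2 and FGF4 minus that of FGF8 and FGF17 in each library, with no test, since the genes were chosen for it. It was -1.81 and -1.53 with DMSO and 2.00 and 1.92 with IWP2. The pair mean was thus higher for the streak ligands in both DMSO libraries and for FGF2 and FGF4 in both IWP2 libraries. Single genes did not all follow the pair means, since FGF4 lay under FGF8 in both IWP2 libraries and FGF2 was 1.08 times FGF17 in DMSO replicate 2. The group means differed by 3.63, most of it from the fall of FGF8 and FGF17. FGF4, under 1 FPKM throughout, lowered the mean of its pair in both groups, and FGF2 was the larger term of its pair in every library. The ratio of FGF2 to FGF8 went from 0.774 and 0.659 with DMSO to 18.8 and 20.7 with IWP2.

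Among the remaining ligands, FGF10 (ENSG00000070193.4, minus strand, chr5:44303544-44389706), a mesenchymal signal of limb and lung budding, fell. It had 9.70 and 12.1 FPKM with DMSO and 2.62 and 2.81 FPKM with IWP2. The difference was -1.67 ± 0.15 (log2 scale, SE, limma adjusted p = 0.004397), and the groups did not overlap. Its antisense neighbour FGF10-AS1 was at 0.0266 FPKM in 1 DMSO library and listed at 0 in the other 3 libraries.

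FGF19 (ENSG00000162344.3, minus strand, chr11:69698232-69704642), an endocrine FGF that controls bile acid synthesis in the adult and needs the co-receptor KLB, was low with DMSO and almost gone with IWP2. It had 1.04 and 1.16 FPKM with DMSO and 0.0542 and 0.0839 FPKM with IWP2. As a gene with 1 annotated transcript, this came to about 52 fragments in each DMSO library and about 3 and 4 in the IWP2 libraries. The difference was -0.97 ± 0.18 (log2 scale, SE, limma adjusted p = 0.0296). KLB was at or under 0.181 FPKM in every library.

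FGF3 (ENSG00000186895.2, minus strand, chr11:69810224-69819024), a signal of the streak and inner ear in the mouse embryo, was listed at 0 in 3 libraries. The exception was DMSO replicate 2, at 0.0792 FPKM, and no fold was computed. FGF19, FGF4 and FGF3 are neighbours within 120.8 kb of chromosome 11, and of the 3 only FGF19 was called.

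FGF13 (ENSG00000129682.15, minus strand, chrX:138614731-139222777), which is not secreted but acts inside cells on sodium channels and microtubules, was the most abundant member. It had 39.6 and 37.2 FPKM with DMSO and 39.1 and 45.5 FPKM with IWP2, with overlapping groups. The difference was 0.13 ± 0.11 (log2 scale, SE, limma adjusted p = 0.4683), with a 95% interval from -0.14 to 0.40. FGF13-AS1, on the other strand within the gene, had between 0.490 and 1.02 FPKM.

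Leaving out either IWP2 library left FGF8 and FGF17 as the called members, and FGF2, FGF10 and FGF19 then missed the threshold at unchanged sign. Without a filter on low values, FGF10 and FGF19 also missed it, with adjusted p-values of 0.0536 and 0.0528. Without either DMSO library, and at a minimum mean of 1 FPKM, FGF19 was under the filter on low values and had no test, and 3 members were then called lower. On the log2 scale FGF2, FGF10 and FGF19 differed by 0.9786, -1.635 and -0.953 without IWP2 replicate 1. Without IWP2 replicate 2 these differences were 0.9344, -1.709 and -0.993. Over the alternatives with a test, 14 for FGF2 and FGF10 and 11 for FGF19, the adjusted p ranged from 0.00392 to 0.0865 for FGF2, from 0.00295 to 0.0774 for FGF10 and from 0.0127 to 0.165 for FGF19.

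Because FPKM corrects for length, the ligands could be set beside each other within a library. With DMSO the order by mean was FGF8 at 15.8 ± 1.33, FGF17 at 12.4 ± 3.16, FGF2 at 11.3 ± 0.34 and FGF10 at 10.9 ± 1.68 FPKM (SD, n = 2), followed by FGF19, FGF18 and FGF4 between 1.10 and 0.795. No neighbours within either set differed beyond their spread, whereas FGF10 and FGF19 did. FGF13, the intracellular member, stood above all of them and FGF3 below. With IWP2 the order was FGF2 at 22.8 ± 0.52, FGF10 at 2.71 ± 0.13 and FGF8 at 1.16 ± 0.05 FPKM (SD, n = 2), followed by FGF4 at 0.654 ± 0.23, FGF18 at 0.339 ± 0.12, FGF17 at 0.203 ± 0.02 and FGF19 at 0.0691 ± 0.02. In that order FGF4 and FGF18, and FGF18 and FGF17, overlapped within 1 SD, and the other neighbours did not.

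Summed over the 8 extracellular members, ligand transcripts came to 53.2 and 53.4 FPKM with DMSO and 27.6 and 28.3 FPKM with IWP2. FGF8 and FGF17 made up 55.4% and 50.4% of that sum with DMSO and 5.12% and 4.62% with IWP2. FGF2 made up 21.6% and 20.6% with DMSO and 81.3% and 81.9% with IWP2. The sum over these 8 was therefore lower with IWP2 while the FGF2 share was higher, with FGF10 the next of the 8 at 9.49% and 9.93%. These shares leave out the other FGF family genes. Among those, FGF16 had 3.54 and 1.73 FPKM with DMSO and 2.90 and 4.37 FPKM with IWP2, above FGF10 in both IWP2 libraries.

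**Figure D2:**
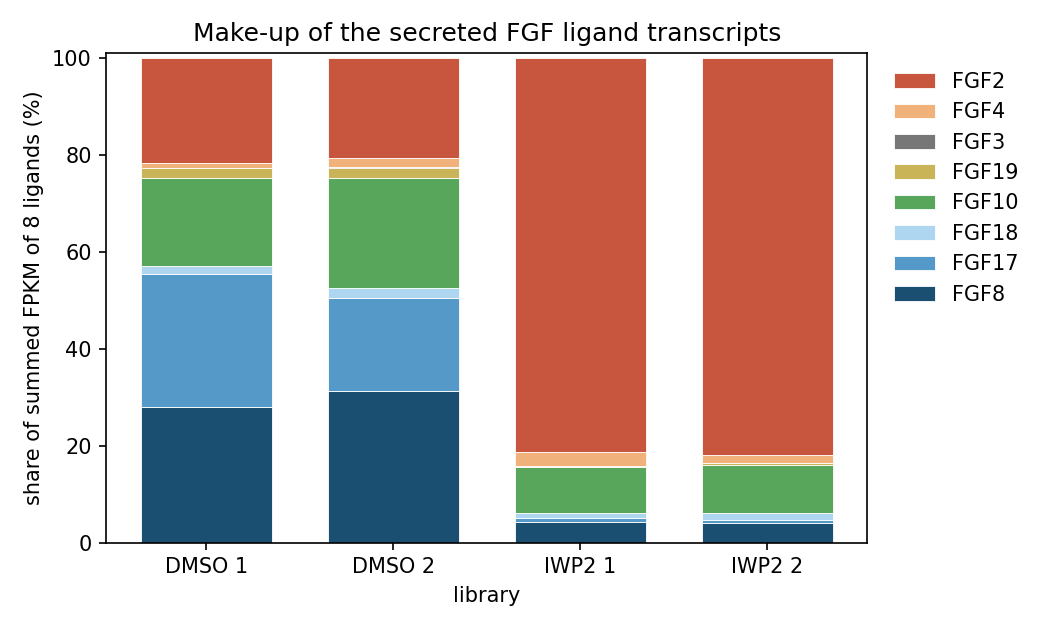
Share of each of 8 extracellular FGF ligands in their summed FPKM, in percent on the vertical axis, with 1 stacked bar per library. FGF8 and FGF17, in dark and mid blue, fill 55.4% and 50.4% of the DMSO bars, and FGF2, in red, fills 81.3% and 81.9% of the IWP2 bars.

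Of the 13 other FGF family genes, 8 were under the filter in these cells, and FGF6 and FGF20 were listed at 0 in all 4 libraries. Of the 5 tested, 1 was called, against 13.3% of all genes tested, and the list is too short to set against that share. FGF7, a mesenchymal ligand of the same subfamily as FGF10, had 0.106 and 0.0597 FPKM with DMSO and 1.18 and 1.22 FPKM with IWP2. It rose by 1.02 ± 0.18 on the log2 scale (SE, limma adjusted p = 0.0249), the opposite direction to FGF10. Its adjusted p was 0.0712 without DMSO replicate 1 and 0.0809 without DMSO replicate 2, and without either IWP2 library it was under the filter, which it passed only through its IWP2 values. Without a filter its adjusted p was 0.0504. FGF11 and FGF16, the most abundant of those not called, had differences of 0.68 and 0.38 on that scale and adjusted p-values of 0.0878 and 0.473 in limma.

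The receptors were present in both groups. Of 5 receptor genes tested, 1 was called higher and 1 lower, beside 5.86% and 7.39% of all genes tested. Their median difference was -0.13. FGFR3 had 21.8 and 20.7 FPKM with DMSO and 49.4 and 45.4 FPKM with IWP2, a rise of 1.12 ± 0.09 (log2 scale, SE, limma adjusted p = 0.00355). FGFRL1, a receptor without a kinase domain, had 16.2 and 17.1 FPKM with DMSO and 8.56 and 7.94 FPKM with IWP2, a difference of -0.93 ± 0.10 (log2 scale, SE, limma adjusted p = 0.00758). FGFR1 was the most abundant receptor, with 116 and 96.6 FPKM with DMSO and 88.5 and 76.6 FPKM with IWP2, and at an adjusted p of 0.1422 in limma it was not called. FGFR4 differed by -0.13, with a 95% interval from -0.38 to 0.11. FGFR2, named after its values were seen, had 7.89 and 10.6 FPKM with DMSO and 14.9 and 14.4 FPKM with IWP2, without overlap, and at 0.63 on the log2 scale was not called (limma adjusted p = 0.0637). Without IWP2 replicate 1 or 2 the adjusted p of FGFR3 was 0.0712 and 0.0556, and that of FGFRL1 lay between 0.0503 and 0.0927 with any 1 library left out.

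None of the 16 signal transducers between receptor and ERK was called in limma, beside 13.3% of all genes tested, and 5 of them had an unadjusted p under 0.05. Their summed level was 604 and 608 FPKM with DMSO and 598 and 579 FPKM with IWP2, and their median difference was -0.15. The adaptors SHC1 and GRB2, the most abundant, differed by 0.25 and -0.18 on the log2 scale. No transducer showed a difference of the size seen in FGF8, FGF17 or FGF10.

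The ERK feedback and FGF response genes were lower where they changed. Of 16 tested, 8 were called lower and 0 higher, beside 7.39% and 5.86% of all genes tested. An unadjusted p under 0.05 in limma was reached by 9, and the median difference was -0.71 on the log2 scale. The DUSP phosphatases, which take phosphate off ERK, were among the furthest down. DUSP5 had 45.8 and 41.8 FPKM with DMSO and 10.9 and 11.7 FPKM with IWP2, a difference of -1.86 ± 0.10 (log2 scale, SE, limma adjusted p = 0.00104). DUSP4 went from 3.45 and 4.62 FPKM to 0.465 and 0.321 FPKM. DUSP6 went from 42.4 and 25.1 FPKM to 9.19 and 8.09 FPKM, so its DMSO libraries were unequal but both lay above the IWP2 libraries.

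SPRY4, a Sprouty inhibitor of the RAS-ERK cascade, had 100.6 and 73.1 FPKM with DMSO and 36.2 and 33.5 FPKM with IWP2. IL17RD (also called SEF), a membrane inhibitor of FGF signals, and FLRT3, a membrane protein that binds FGF receptors, differed by -0.93 and -1.72 on the log2 scale, with adjusted p-values of 0.0137 and 0.0116 in limma. SPRED2 and ETV4, named after their values were seen, completed the 8 with -0.85 and -0.68. SPRY2 was at 24.4 and 22.1 FPKM with DMSO and 21.8 and 23.1 FPKM with IWP2, overlapping groups. FGFBP3, a carrier protein for FGFs, differed more between the DMSO libraries, at 42.2 and 16.99 FPKM, than the groups did. The 8 calls became 2, DUSP5 and ETV4, without the filter on low values, 5 without either DMSO library and 1, DUSP5, without either IWP2 library, while 1 gene, FGFBP3, was called higher without DMSO replicate 1 (1.53 on the log2 scale).

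**Figure D3:**
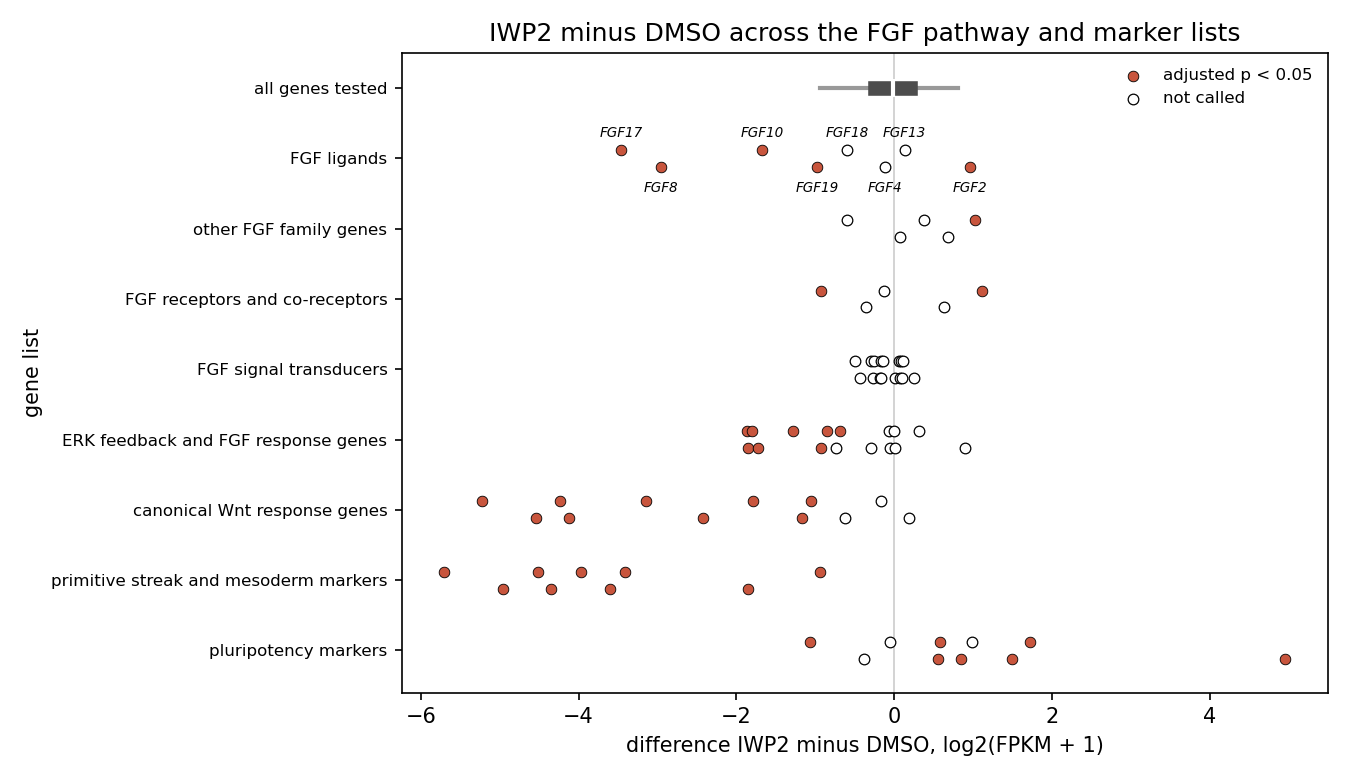
Difference IWP2 minus DMSO on the log2(FPKM + 1) scale along the horizontal axis, with 1 point per tested gene, filled where the adjusted p was under 0.05, and 1 row per gene list. The top row shows all 15957 genes tested (median, quartiles as a thick bar, 5% to 95% as a thin line); signal transducers lie around 0, whereas FGF8 and FGF17 lie at -2.96 and -3.46, within the span of the streak markers.

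These are values of whole cultures, in which fewer cells of a type and less RNA per cell cannot be told apart. All 9 streak and mesoderm markers tested were called lower. Over all genes tested 7.39% were called lower and 5.86% higher, the shares to set beside the marker counts here and below. MESP1, MESP2, GSC and LHX1 had IWP2 means under 0.5 FPKM and passed the filter only through their DMSO values. The count thus only describes the markers that passed. MSGN1, at 1.00 and 0.446 FPKM with DMSO and listed at 0 with IWP2, was under the filter. The list, MSGN1 included, summed to 594 and 708 FPKM with DMSO and 47.2 and 52.2 FPKM with IWP2. MIXL1 was the most abundant marker, at 278 and 317 FPKM with DMSO and 21.7 and 25.4 FPKM with IWP2. The nascent mesoderm factor MESP1 was at 47.6 and 74.6 FPKM with DMSO and 0.244 and 0.0870 FPKM with IWP2. LHX1, EVX1, GSC and MESP2, the other genes with the largest differences, differed by -4.96, -4.51, -4.36 and -3.96 on the log2 scale. T, the Brachyury gene that marks the streak and was named after its values were seen, differed by -0.94 on the log2 scale and kept 9.40 and 10.4 FPKM with IWP2. With 1 library left out, 6 to 9 of the markers were still lower. FGF8 and FGF17 moved with these markers, and the part of cell make-up in the FGF values was not tested.

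Of 12 canonical Wnt response genes, 9 were lower and 0 higher, and SP5 went from 53.2 and 47.0 FPKM to 0.379 and 0.363 FPKM. LGR5, DKK1, NKD1, LEF1 and CDX2 differed by -4.54, -4.24, -4.12, -3.14 and -2.42 on the log2 scale. CDX1, AXIN2 and NOTUM, named after their values were seen, completed the 9 with -1.79, -1.16 and -1.06. AXIN2 had 14.2 and 15.2 FPKM with DMSO and kept 6.45 and 5.58 FPKM with IWP2. TNFRSF19, ZNRF3 and RNF43 were not called, at -0.63, 0.19 and -0.17. LEF1, SP5, LGR5, CDX1 and CDX2 had IWP2 means under 0.5 FPKM and passed the filter only through their DMSO values. Pluripotency markers were mostly higher, with 6 of 10 called higher and 1 lower. Their summed level was 1486 and 1319 FPKM with DMSO and 2656 and 2654 FPKM with IWP2, and POU5F1 was the most abundant. Besides SOX2 and POU5F1, PRDM14, DPPA4 and ZFP42 rose by 1.72, 0.85 and 0.59 on the log2 scale. The marker that fell was TDGF1, a co-receptor for Nodal, with -1.06 ± 0.08 (log2 scale, SE, limma adjusted p = 0.003339). LIN28A, at 258 and 248 FPKM with DMSO and 239 and 252 FPKM with IWP2, was not called, nor was LIN28B at -0.39. NANOG, named after its values were seen, had 23.0 and 9.54 FPKM with DMSO and 33.6 and 27.5 FPKM with IWP2, and was not called (limma adjusted p = 0.182). Without the filter on low values, 3 pluripotency markers were higher and 1 lower. With either IWP2 library left out, 1 pluripotency marker, SOX2, was called higher and 0 lower, and 6 Wnt response genes were lower.

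Markers of other fates also moved with treatment. Of 6 definitive endoderm markers, 5 were lower, and their sum went from 1917 and 2307 FPKM to 126 and 137 FPKM, with CER1 the most abundant and furthest down at -5.60 on the log2 scale. GATA6, FOXA2, CXCR4 and HHEX differed by -4.90, -2.18, -1.94 and -1.27, and SOX17, at -0.54, was not called. Of 7 trophoblast and amnion markers tested, 4 were higher and 1, HAND1, was lower. HAND1 is also one of the study's mesenchymal genes, so its fall is not particular to this list. Within that list IGFBP3 went from 2.18 and 1.49 FPKM to 16.4 and 18.3 FPKM and KRT7 from 0.833 and 0.864 FPKM to 5.85 and 8.22 FPKM, whereas CGB5 was listed at 0 throughout and CGA was at or under 0.0998 FPKM. TFAP2A and GABRP differed by 1.22 and 1.16 on the log2 scale and HAND1 by -1.32, and GATA3 and ISL1, at -0.20 and -0.09, were not called. The sum of that list was 300.0 and 388 FPKM with DMSO and 200 and 227 FPKM with IWP2, HAND1 being the most abundant. Of the blood and endothelial markers, GATA1 was listed at 0 in all 4 libraries, PTPRC was at or under 0.00906 FPKM, and of the 3 tested 2 were lower. The list summed to 61.3 and 65.7 FPKM with DMSO and 40.8 and 38.2 FPKM with IWP2, mostly from the receptor KDR, one of those 2, at 53.2 and 60.4 FPKM with DMSO and 38.6 and 35.7 FPKM with IWP2. RUNX1 was the other, at -1.43 on the log2 scale, and CD34, at -0.66, was not called. Of 3 neuroectoderm markers tested, OTX2 was lower (-4.07 on the log2 scale) and NES higher (0.49), PAX6 at -0.89 was not called, and their list summed to 156 and 149 FPKM with DMSO and 139 and 128 FPKM with IWP2, with NES the most abundant. With either IWP2 library left out, 2 endoderm markers were still lower, 0 to 1 trophoblast and amnion markers were higher and 0 lower, and neither NES nor KDR passed the test with any 1 library left out. RUNX1 kept its call without DMSO replicate 2, where CD34 gained one (-1.20, limma adjusted p = 0.0474), and lost it without each of the other libraries. Without the filter on low values, 2 endoderm markers were lower, 1 trophoblast and amnion marker was higher and 0 lower, 0 blood and endothelial markers were lower, and of the neuroectoderm markers OTX2 alone was called. The part of these cells in the FGF differences was not tested.

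Genes with the most similar pattern were sought by the Euclidean distance between centred log2(FPKM + 1) values over the 4 libraries, among 14010 genes with a mean of at least 1 FPKM. With 4 libraries in 2 groups, such likeness reflects little more than the group difference and the gap between replicates. The nearest to FGF8 were PDGFRA, a receptor of early mesoderm (distance 0.07), SP6 (0.08) and RCSD1 (0.09). PDGFRA had 8.38 and 10.1 FPKM with DMSO and 0.378 and 0.323 FPKM with IWP2. The nearest to FGF17 were TNC, a matrix glycoprotein (0.06), TMOD1 (0.27) and AC078993.1 (0.29). TNC shared the higher value in DMSO replicate 1, at 103 against 70.7 FPKM, and had 7.24 and 6.94 FPKM with IWP2. The nearest to FGF2 were TRERF1, GABRE and KDF1, at distances of 0.02, 0.05 and 0.05. For FGF4 they were ZKSCAN7, COLGALT1 and SAP130, at 0.02, 0.02 and 0.03, with group differences between -0.14 and -0.09 on the log2 scale.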

How the data were processed

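The deposited table gave 1 value per gene and library, read here as FPKM. No label or header states that unit, and the order and shares of the ligands within a library depend on it. Per the labels, the authors built Illumina TruSeq libraries from 2 ug of total RNA, and the submitters' processing notes name BWA, Bowtie, RSEM and hg19; their roles and versions are not given in the sources used here. The gene coordinates in the table are those of GRCh38 (99.0% of 58057 gene IDs shared with GENCODE 29 had the same start or end). Low values of genes with 1 transcript fell in whole steps, from which 20600000 to 25300000 fragments per library were estimated (at least 91.0% of low values within 0.1 of a whole fragment in each library). Values of 0 or near it thus rest on very few fragments, and this covers counting error only.

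For repeated symbols the row with the highest mean was kept. Genes with a mean of at least 0.5 FPKM were tested with limma 3.58.1 in R 4.3.3 (trend, no covariate) on log2(FPKM + 1), two-sided, with Benjamini-Hochberg adjustment over all 15957 genes. On simulated data with 200 changed genes, the fit recovered 35%, 93.5% and 98% of differences of 1, 2 and 3 on the log2 scale. False calls numbered 5, 9 and 11. The changed genes were not among the low ones, so levels such as those of FGF4 and FGF18 were not covered. An exact permutation test of 2 against 2 libraries cannot go below p = 0.333 and was not used. From each list the called genes with the largest differences (at most 6) and the 2 most abundant uncalled genes were named. T, SPRED2, ETV4, NANOG, FGFR2, AXIN2, NOTUM, CDX1, RNF43 and genes under the filter were added after their values were seen. The members, lists and tests were chosen with earlier results of these data known. Genes low in either group could pass the filter through the other group alone, so list counts describe only the genes that passed. Alternatives were pseudocounts of 0.1 and 0.5, other filters, TPM and quantile scaling, limma without trend or with robust estimation, summed repeated rows, a replicate block and leaving out each library.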

Additional observations from a re-analysis of the deposited data

How the results depend on the processing

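FGF8 and FGF17 were called lower under all 14 alternatives, with differences from -3.66 to -2.88 and from -5.35 to -3.22 on the log2 scale, the lowest values at a pseudocount of 0.1. Comparisons of 2 libraries against 1, in which the lone library is assumed to vary like the other group, cost most of the calls. Leaving out 1 library in turn gave 187 to 934 genes called, 46 to 384 higher and 140 to 599 lower, 2 to 3 FGF ligands lower and 0 to 1 higher, and 1 to 5 ERK feedback genes lower. FGF2 then ranged from 0.93 to 0.98, FGF10 from -1.82 to -1.53, FGF19 from -0.99 to -0.95 and FGF4 from -0.26 to 0.027, being 0.027 without DMSO replicate 2 and 0.024 without IWP2 replicate 2. FGF2, FGF10 and FGF19 lost their call without IWP2 replicate 1 (0.98, -1.64 and -0.95) and without IWP2 replicate 2 (0.93, -1.71 and -0.99).

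Without a filter on low values, 28846 genes entered the fit and 384 were called (118 higher, 266 lower). Of the FGF ligands 2 were then lower, FGF10 (-1.67, adjusted p = 0.05355) and FGF19 (-0.97, adjusted p = 0.05276) missing the threshold in limma, and 2 ERK feedback genes were lower. The cause was not tested. The contrast of FGF2 and FGF4 with FGF8 and FGF17, 3.63 as reported, was 4.88 at a pseudocount of 0.1 and 3.97 after scaling to TPM, and from 3.49 to 3.77 with 1 library left out. Among single genes, SPRY2 turned to 0.0024 under quantile normalization and 0.020 without DMSO replicate 1, with a range from -0.11 to 0.020 over the libraries left out. Quantile normalization gave 1062 genes higher and 1064 lower, against 935 and 1180. The median difference over all genes, -0.0145 as reported, was -0.04 under TPM scaling and 0.0237 under quantile normalization.

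The labels number the libraries 1 and 2 in both groups without saying that a number marks a shared culture or day. Across genes, same-numbered libraries deviated together with a correlation of 0.138. With the replicate block 1922 genes were called against 2115, and FGF19 missed the threshold (-0.97, limma adjusted p = 0.0513, against 0.0127 to 0.165 over its alternatives). No other FGF ligand lost or gained a call with the block. With 2 libraries per group, differences near the spread between replicates, such as those of FGF4 and FGF13, could not be resolved.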

Other observations

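Several FGF genes outside the main comparison were under the filter on low values and were not tested. FGF5, a gene of the postimplantation epiblast, had 0.316 and 0.869 FPKM with DMSO, 0.00795 FPKM in 1 IWP2 library and was listed at 0 in the other. FGF14, an intracellular FGF like FGF13, had 0.0887 and 0.0994 FPKM with DMSO and 0.322 and 0.513 FPKM with IWP2. FGF1, the other member of the FGF2 subfamily, had 0.145 and 0.0431 FPKM with DMSO and 0.314 and 1.35 FPKM with IWP2, with IWP2 replicate 2 well above the other 3 libraries.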
